A study of Mus musculus with 6 samples.

Results

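The genes described here encode the enzymes that remove acetyl and methyl groups from histones and that write or oxidise DNA methylation, with 2 families of histone methyltransferases. They were taken by symbol from probes annotated with a single gene: every symbol that begins with Kdm, Hdac, Sirt, Tet, Dnmt, Ezh or Setd followed by a digit. The rule gave 54 of 19935 genes, read by 63 probes. They comprised 18 histone demethylases, 11 zinc-dependent deacetylases, 7 sirtuins, 4 DNA methyltransferase genes, 3 Tet dioxygenases, 2 Ezh and 8 Setd methyltransferases, and 1 antisense RNA. The antisense RNA, Dnmt3aos, met the rule by its symbol and is not an enzyme.

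All samples were peritoneal macrophages of C57BL/6 mice, and no engineered allele is named. Control cells were untreated, with no culture time given. A second group received poly I:C, a double-stranded RNA analogue that TLR3 senses, at 2 ug/mL for 24 h, and the remaining group received PAM, a lipopeptide sensed by TLR2, at 1 ug/mL for 24 h. The labels write the lipopeptide as PAMCSK3 for PAM array 1 and as PAMCSK4 for PAM array 2. Each group had 2 arrays, 6 in all, and the comparison was set up to find genes that TLR3 activation raises and TLR2 activation lowers. The labels do not say whether both arrays of a group come from different mice or dishes. The p-values therefore reflect array-to-array spread alone, which may be technical. A control culture handled for the same time is not described, so time in culture and ligand cannot be told apart in the comparisons with control.

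Histone acetylation and methylation mark whether a gene's chromatin is open to transcription. Lysine demethylases remove methyl groups and need iron and alpha-ketoglutarate, or flavin in the LSD type. Zinc deacetylases act mostly inside corepressor complexes, whereas sirtuins consume NAD. DNA methyltransferases place methyl groups on cytosine, and Tet enzymes oxidise them. In macrophages these enzymes are known for restraining or permitting the inflammatory genes that Toll-like receptors switch on, Kdm6b, Hdac3 and Tet2 among them.

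The deposited values are on a logarithmic scale, taken here as log2, with each probe's median over the 6 arrays set to 0. A value is therefore a distance from that gene's own median, and neither levels nor the rank of one gene above another can be read. A second property survived the centring: the stored precision of the numbers showed that 25 of the 54 genes (46.3%) had lain at 8 or above on every array, as had 5791 of the 19935 genes. The same reading marked 79.1% of 67 ribosomal protein genes and 1.27% of 1027 olfactory receptor genes. All 9 measured macrophage markers lay at 8 or above, against 3 of 9 resident peritoneal macrophage markers, 0 of 9 for B cells, 1 of 9 for T and NK cells, 0 of 10 for neutrophils, 0 of 7 for mast cells, 0 of 7 for dendritic cells and 4 of 10 for mesothelial cells and fibroblasts. With each ligand 3 of the 9 macrophage markers were higher than in control and 3 lower. The 9 log2 differences spanned -1.49 to 2.65 with poly I:C and -1.72 to 2.39 with PAM. Resident markers gave 4 higher and 3 lower with poly I:C (-2.09 to 2.44), and 4 and 2 with PAM (-2.77 to 4.64). Series-wide, 12.1% of genes rose and 18.2% fell with poly I:C, and 11.0% and 14.0% with PAM. Among genes at 8 or above the shares were 21.8% and 34.0%, and 20.8% and 25.9%. With poly I:C and PAM, 0 and 1 mesothelial and fibroblast markers were higher and 4 and 3 lower. The 4 became 2 without control 1 or poly I:C 2 and 1 without poly I:C 1, the 3 became 1 without control 1 or PAM 1, 5 without control 2 and 0 without PAM 2, and the 1 higher became 4 without control 1. For B cells 2 and 3 markers were higher; the 2 became 1 without control 2 or either poly I:C array, and the 3 became 1 without control 2 or PAM 2. For neutrophils 0 and 2 were higher (S100a8 2.04 with PAM) and 1 and 1 lower, the 1 lower with poly I:C becoming 2 without control 2 or poly I:C 2. The dendritic cell marker Ccr7 was higher with both ligands, with poly I:C not without control 2 or either poly I:C array, and with PAM only without control 1. For T, NK and mast cells 0 passed in limma (at an unadjusted p under 0.05, 1 T or NK cell marker was higher with poly I:C and 1 mast cell marker was lower with each ligand). The part of such cells in the results was not tested. In these bulk samples fewer cells of a type and less RNA per cell cannot be told apart.

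To place the genes in the genome, RefSeq promoters (GRCm38.p6, 250 bases before to 50 after each start) were matched for 45 of the 54 genes, with 64 promoters. Those shown belong to the 4 genes that differed by more than 1 log2 unit in a comparison, and to Sirt6, chosen after its values were seen for its rise with poly I:C. Capitals mark CG in the first 4 and a match to the NF-kB consensus in the last. They lie at chr12:3806730-3807029 on the plus strand (Dnmt3a), chr12:3862195-3862494 on the minus strand (Dnmt3aos), chr6:39206724-39207023 on the minus strand (Kdm7a), chr12:34528840-34529139 on the minus strand (Hdac9) and chr10:81627273-81627572 on the minus strand (Sirt6).
Dnmt3a: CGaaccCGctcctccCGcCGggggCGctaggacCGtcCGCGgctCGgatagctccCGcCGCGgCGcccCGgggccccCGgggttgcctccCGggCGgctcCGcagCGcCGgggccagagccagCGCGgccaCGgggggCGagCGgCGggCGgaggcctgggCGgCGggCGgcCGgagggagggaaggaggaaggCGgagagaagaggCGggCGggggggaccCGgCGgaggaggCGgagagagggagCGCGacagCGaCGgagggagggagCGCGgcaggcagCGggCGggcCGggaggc
Dnmt3aos: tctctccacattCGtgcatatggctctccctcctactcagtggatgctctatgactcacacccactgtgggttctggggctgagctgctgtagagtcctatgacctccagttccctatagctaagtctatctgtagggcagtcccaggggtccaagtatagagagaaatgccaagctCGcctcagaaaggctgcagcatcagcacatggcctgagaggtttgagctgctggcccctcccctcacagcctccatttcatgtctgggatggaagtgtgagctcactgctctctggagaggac
Kdm7a: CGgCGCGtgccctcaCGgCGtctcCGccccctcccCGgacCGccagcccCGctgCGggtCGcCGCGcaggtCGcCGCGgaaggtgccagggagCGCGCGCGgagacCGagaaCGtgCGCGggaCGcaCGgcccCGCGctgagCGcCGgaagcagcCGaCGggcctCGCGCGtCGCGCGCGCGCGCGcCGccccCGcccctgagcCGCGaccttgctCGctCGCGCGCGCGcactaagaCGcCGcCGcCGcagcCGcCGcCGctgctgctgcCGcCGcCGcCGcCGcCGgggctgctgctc
Hdac9: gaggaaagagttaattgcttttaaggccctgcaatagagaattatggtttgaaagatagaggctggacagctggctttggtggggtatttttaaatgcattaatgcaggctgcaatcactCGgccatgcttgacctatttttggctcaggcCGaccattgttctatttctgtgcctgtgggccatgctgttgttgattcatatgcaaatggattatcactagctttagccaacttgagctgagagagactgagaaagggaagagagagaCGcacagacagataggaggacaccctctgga
Sirt6: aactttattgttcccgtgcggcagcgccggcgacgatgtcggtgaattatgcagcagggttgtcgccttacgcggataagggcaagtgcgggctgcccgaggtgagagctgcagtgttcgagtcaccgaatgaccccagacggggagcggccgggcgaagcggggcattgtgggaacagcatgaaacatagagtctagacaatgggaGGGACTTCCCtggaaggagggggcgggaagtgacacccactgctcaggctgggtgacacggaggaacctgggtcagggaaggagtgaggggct

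Dnmt3a, Hdac9 and Sirt6 have further listed promoters that are not printed. The printed Dnmt3a promoter held 46 CG pairs and the others 47 and 18, while that of Kdm7a held 65, a number reached by 3 of 32851 promoters. The Dnmt3aos promoter held 2, the printed Hdac9 promoter 3 and the other Hdac9 promoter 0, against a median of 7 over all promoters and 21 over those of the 45 genes. The start of Dnmt3aos lay on the opposite strand between the outermost of the 3 listed Dnmt3a starts. The interferon-stimulated response element core, GAAANNGAAA on either strand, was in 3.44% of all promoters and in 0 of the 64. The NF-kB consensus was in 8.46% of all promoters and in 8 of the 64 (12.5%), those of Dnmt3b, Kdm1b, Kdm2b, Kdm5b, Sirt2, Sirt3, Sirt5 and Sirt6. These matches describe letters in a window, and no binding was measured.

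Both ligands moved genes of this group in both directions. With poly I:C 7 genes were higher and 15 lower than in control (limma, Benjamini-Hochberg adjusted p under 0.05 over all 19935 genes). These were 13.0% and 27.8% of the 54, together 40.7%, against 12.1% and 18.2% of all genes, together 30.4%. With PAM 11 were higher and 18 lower, 20.4% and 33.3%, together 53.7%, against 11.0% and 14.0% of all genes, together 25.0%. Between the ligands 14 were higher and 13 lower under poly I:C than under PAM, 25.9% and 24.1%, against 12.9% and 15.8%, together 28.7%. In all, 37 of the 54 passed in at least 1 comparison, and 4 differed by more than 1 log2 unit: Dnmt3a, Dnmt3aos, Hdac9 and Kdm7a. The matching shares of all genes were not counted for these last numbers. The median difference of the 54 genes was -0.06 for poly I:C and -0.04 for PAM, each against control, and 0.01 and -0.00 over all genes.

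The share called moved with signal. Among the 5791 genes at 8 or above, 55.7% were called for poly I:C, 46.7% for PAM and 54.4% between the ligands. Of the 25 enzyme genes at 8 or above, 13 (52.0%), 15 (60.0%) and 15 (60.0%) were called. By direction, 5 were higher and 8 lower under poly I:C (all such genes 21.8% and 34.0%), 6 and 9 with PAM (20.8% and 25.9%), and 9 and 6 between the ligands (24.3% and 30.1%). Of the other 29 enzyme genes 9 (31.0%), 14 (48.3%) and 12 (41.4%) were called, as were 2832, 2278 (16.1%) and 2573 (18.2%) of the 14144 genes not at 8 or above on every array. The poly I:C share was thus below that of all genes at 8 or above and higher than that of all the others. The other 29 enzyme genes included Kdm2b, Kdm6b, Ezh2, Setd7, Sirt3, Sirt5, Hdac4, Hdac5, Hdac6, Hdac9 and Hdac10. The counts also leaned on single arrays. An array of the group not compared does not enter a difference, so leaving it out changed only the error estimate and p-values. The 7 genes higher with poly I:C became 3 without control 1, 2 without poly I:C 1 and 3 without poly I:C 2, and the 11 higher with PAM became 6 without PAM 2. The 18 lower with PAM became 11 without control 2 and 11 without PAM 1, and the 14 higher under poly I:C than under PAM became 8 without poly I:C 1 and 9 without either PAM array.

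**Figure D1:**
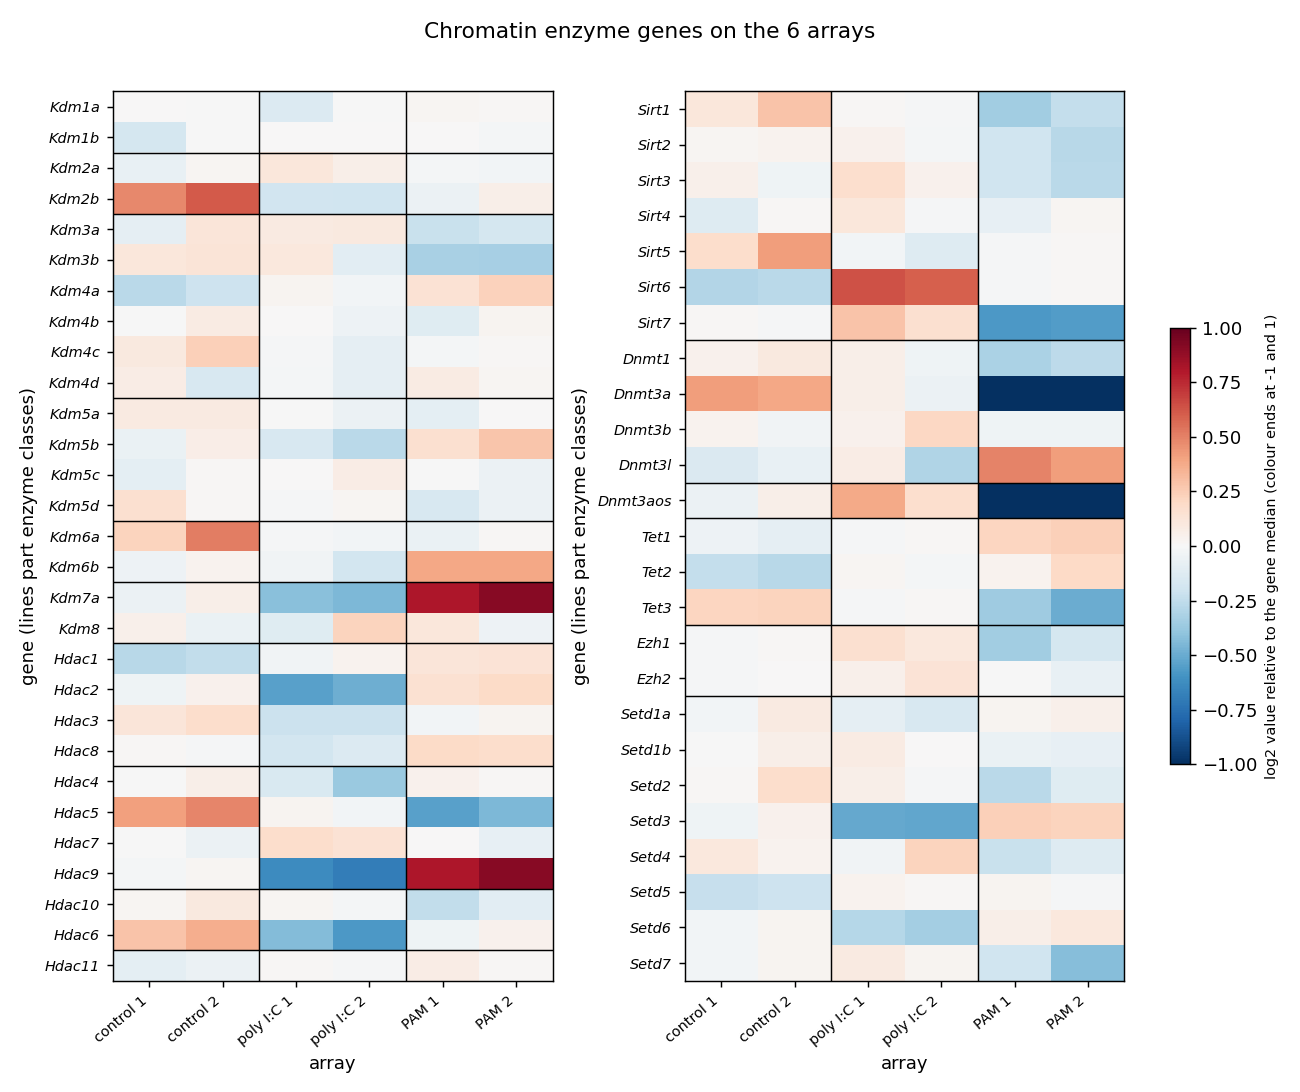
Each row is 1 of the 54 genes and each column 1 of the 6 arrays; colour gives the log2 value relative to the gene's own median, with the colour scale ending at -1 and 1. The 2 arrays of a group share their colour for the genes that changed most, such as Dnmt3a and Dnmt3aos, below -1 on both PAM arrays.

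The DNA methyltransferase genes carried the largest change. Dnmt3a, a de novo methyltransferase, stood at 0.42 and 0.38 on the control arrays, 0.06 and -0.06 with poly I:C and -1.78 and -1.63 with PAM. The 3 groups did not overlap, and the PAM arrays lay far below the others. Dnmt3a fell 4.3-fold with PAM (-2.11 ± 0.08, SE of the log2 difference, n = 2 arrays per group; limma adjusted p = 1.17e-07). It fell 1.32-fold with poly I:C (-0.40 ± 0.08; adjusted p = 0.00328), so the ligands differed by 1.70 ± 0.08 (adjusted p = 3.24e-07). These calls held without any single array.

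Dnmt3aos, the RNA read from the opposite strand within the Dnmt3a locus, stood at -0.06 and 0.06 in control, 0.38 and 0.16 with poly I:C and -1.76 and -1.87 with PAM. Its PAM arrays were the low ones, as for Dnmt3a. It fell 3.51-fold with PAM (-1.81 ± 0.09; limma adjusted p = 7.99e-07). With poly I:C the order of the 2 genes parted: Dnmt3aos rose by 0.27 ± 0.09 (adjusted p = 0.0479), but this call ended without control 1, poly I:C 1, PAM 1 or PAM 2, where the adjusted p reached 0.298. Dnmt3aos was not at 8 or above on all arrays, and whether the array separates the strands is not given in the sources used here.

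Dnmt1 copies methylation onto new DNA strands. It stood at 0.04 and 0.10 in control, 0.06 and -0.04 with poly I:C and -0.31 and -0.26 with PAM. The PAM arrays were below all others, while control and poly I:C overlapped. Dnmt1 fell by 0.36 on the log2 scale with PAM (SE 0.07; limma adjusted p = 0.00431), and with poly I:C its difference was -0.06 ± 0.07 (adjusted p = 0.583). The difference between ligands, 0.30 ± 0.07 (adjusted p = 0.0102), ended without poly I:C 1 or PAM 1, where the adjusted p was 0.0838 and 0.0783. Beside it, 9 of 16 proliferation markers were lower and 2 higher with PAM, with a median of -0.31 (Pcna -1.08, Mki67 1.65), and 9 were lower and 1 higher under poly I:C, the median being -0.23. The 9 lower with poly I:C became 4 without control 2 or poly I:C 2 and 5 without poly I:C 1, and the 2 higher with PAM became 1 without PAM 1. Of all genes 14.0% were lower and 11.0% higher with PAM, and 18.2% and 12.1% with poly I:C. The part of proliferation in the Dnmt1 result was not tested.

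Dnmt3l, a cofactor of the de novo enzymes with no catalytic activity of its own, went the other way. It stood at -0.14 and -0.08 in control, 0.08 and -0.30 with poly I:C and 0.50 and 0.42 with PAM. The PAM arrays were the highest, and the poly I:C pair lay on both sides of control. It rose by 0.57 ± 0.11 with PAM (limma adjusted p = 0.00497) and differed by 0.00 ± 0.11 with poly I:C (adjusted p = 0.998). Dnmt3l and Dnmt3b were not at 8 or above on all arrays, and Dnmt3b passed in no comparison (0.13 with poly I:C and -0.04 with PAM).

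The Tet dioxygenases, which start the removal of DNA methylation, parted by member. Tet3 stood at 0.21 and 0.22 in control, -0.01 and 0.01 with poly I:C and -0.36 and -0.49 with PAM, with no overlap between groups. It fell 1.56-fold with PAM (-0.64 ± 0.07; limma adjusted p = 0.000137), and its 2 probes gave -0.91 and -0.37. Its fall with poly I:C (-0.22 ± 0.07, adjusted p = 0.0456) ended without any 1 of the 6 arrays. For poly I:C the 2 probes, each fitted on its own, gave -0.34 (limma adjusted p = 0.0155) and -0.09 (adjusted p = 0.365).

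Tet2, known in myeloid cells for shutting down interleukin genes, stood at -0.24 and -0.28 in control, 0.02 and -0.02 with poly I:C and 0.03 and 0.20 with PAM. Both treated pairs lay above the control pair. Tet2 rose by 0.38 ± 0.07 with PAM (limma adjusted p = 0.00525), a call that ended without PAM 2 (adjusted p = 0.0537). Its rise with poly I:C, 0.26 ± 0.07 (adjusted p = 0.0285), ended without control 2, poly I:C 1 or poly I:C 2 (adjusted p up to 0.138). Tet1 rose by 0.29 ± 0.06 with PAM (adjusted p = 0.00769), also not without PAM 2 (adjusted p = 0.0594). None of the 3 Tet genes was at 8 or above on all arrays.

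Among the 18 histone demethylases 1 was higher and 4 were lower with poly I:C, and 3 were higher and 3 lower with PAM. These were 5.56% and 22.2%, and 16.7% and 16.7%, against 12.1% and 18.2%, and 11.0% and 14.0%, of all genes. The share higher with poly I:C lay below that of all genes, and the others lay above theirs. Each lay below the share of genes at 8 or above, where 11 of the 18 lay (21.8% and 34.0%, and 20.8% and 25.9%). The 4 lower became 2 without control 2, poly I:C 1 or poly I:C 2, and the 1 higher, Kdm4a, was lost without control 1 or either poly I:C array. Kdm7a, which acts on the repressive marks H3K9 and H3K27, responded to the ligands in opposite directions. It stood at -0.06 and 0.06 in control, -0.41 and -0.45 with poly I:C and 0.81 and 0.91 with PAM. Control lay between the treated pairs, with no overlap.

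Kdm7a fell 1.35-fold with poly I:C (-0.43 ± 0.07; limma adjusted p = 0.00156) and rose 1.81-fold with PAM (0.86 ± 0.07; adjusted p = 2.47e-05). The direct difference between ligands was -1.29 ± 0.07, or 2.45-fold (adjusted p = 1.34e-06). Both Kdm7a probes gave 0.86 for PAM, whereas for poly I:C they gave -0.60 and -0.26. Each call held without any single array.

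Kdm6a and Kdm6b remove methyl groups from H3K27, the mark that Ezh2 writes, and Kdm6b is the inflammatory member in macrophages. Kdm6b stood at -0.05 and 0.04 in control, -0.04 and -0.18 with poly I:C and 0.38 and 0.39 with PAM. The PAM arrays were above the rest, and control and poly I:C overlapped. Kdm6b rose 1.31-fold with PAM (0.39 ± 0.07; limma adjusted p = 0.00372), and its difference with poly I:C was -0.10 ± 0.07 (adjusted p = 0.386). The ligands differed by -0.49 ± 0.07 (adjusted p = 0.000798).

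Kdm6a stood at 0.22 and 0.51 in control, -0.01 and -0.03 with poly I:C and -0.07 and 0.01 with PAM. Both control arrays were the highest, but they lay 0.293 apart, the widest control pair among the 54 genes. The falls of 0.39 with poly I:C and 0.40 with PAM on the log2 scale (SE 0.10 each; limma adjusted p = 0.0132 and 0.0142) both ended without control 2, at adjusted p = 0.0550 and 0.0533. The first also ended without poly I:C 1 or poly I:C 2 (adjusted p up to 0.0842), and the second without PAM 1 (adjusted p = 0.0950).

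Kdm2b, which brings a Polycomb complex to unmethylated CpG islands, stood at 0.48 and 0.62 in control, -0.19 and -0.20 with poly I:C and -0.06 and 0.06 with PAM. The control arrays were above all treated ones. Kdm2b fell 1.68-fold with poly I:C (-0.75 ± 0.07; limma adjusted p = 6.01e-05) and by 0.55 on the log2 scale with PAM (SE 0.07; adjusted p = 0.000528). The direct difference of -0.20 between ligands did not pass (adjusted p = 0.0840).

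Of the H3K9 demethylases, Kdm4a rose by 0.42 ± 0.07 with PAM (limma adjusted p = 0.00143), and Kdm3b fell by 0.45 on the log2 scale with PAM (SE 0.08; adjusted p = 0.00252). The Kdm4a rise with poly I:C (0.24 ± 0.07; adjusted p = 0.0251) reached an adjusted p of 0.129 without 1 array. Kdm4c fell with poly I:C at the edge of the threshold (-0.22 ± 0.07; adjusted p = 0.0487), and that call ended without control 2 and without each of the 4 treated arrays. Kdm3a passed between the ligands alone (0.29 ± 0.08; adjusted p = 0.0235), and not without any 1 of the 4 treated arrays. Kdm5b, an H3K4 demethylase, passed between the ligands (-0.43 ± 0.08; adjusted p = 0.00285), with -0.22 for poly I:C and 0.22 for PAM against control, neither called. Kdm1a and Kdm1b, the flavin-dependent enzymes, passed nowhere, and neither did Kdm2a, Kdm4b, Kdm4d, Kdm5a, Kdm5c, Kdm5d or Kdm8.

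Of the 11 zinc deacetylases 6 (54.5%) were lower and 1 (9.09%) higher under poly I:C, against 18.2% and 12.1% of all genes, and the class median was -0.29. With PAM 3 (27.3%) were lower and 2 (18.2%) higher, against 14.0% and 11.0% of all genes, with a median of 0.00, and the 3 became 1 without control 2 or PAM 1. Directly, 6 (54.5%) were lower and 1 (9.09%), Hdac5, higher under poly I:C than under PAM, against 15.8% and 12.9% of all genes. Both counts changed in some fits without 1 array. The 6 lower with poly I:C than in control were Hdac2, Hdac3, Hdac4, Hdac5, Hdac6 and Hdac9.

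Hdac9, a class IIa enzyme that binds MEF2 factors and has little catalytic activity, reversed between ligands in the manner of Kdm7a. It stood at -0.02 and 0.02 in control, -0.63 and -0.69 with poly I:C and 0.81 and 0.91 with PAM. The control pair lay between the treated pairs, and no groups overlapped. Hdac9 fell 1.58-fold with poly I:C (-0.66 ± 0.07; limma adjusted p = 8.19e-05) and rose 1.82-fold with PAM (0.86 ± 0.07; adjusted p = 1.69e-05). The ligands differed 2.87-fold (-1.52 ± 0.07; adjusted p = 3.3e-07). Hdac9 was not at 8 or above on all arrays, nor were Hdac4, Hdac5, Hdac6, Hdac7, Hdac8, Hdac10 or Hdac11.

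Its class IIa relative Hdac5 stood at 0.41 and 0.49 in control, 0.03 and -0.03 with poly I:C and -0.54 and -0.45 with PAM, with every group apart. Hdac5 fell 1.93-fold with PAM (-0.95 ± 0.07; limma adjusted p = 1e-05) and by 0.45 on the log2 scale with poly I:C (SE 0.07; adjusted p = 0.000982). Hdac4 stood at -0.01 and 0.06 in control, -0.15 and -0.37 with poly I:C and 0.04 and 0.01 with PAM. Only the poly I:C pair was low. Hdac4 fell by 0.29 on the log2 scale with poly I:C (SE 0.08, adjusted p = 0.0273), a call that ended without control 2 or poly I:C 2. Its 2 probes, each fitted on its own, gave -0.32 (limma adjusted p = 0.0152) and -0.25 (adjusted p = 0.0615). Hdac7 was 0.19 higher with poly I:C and did not pass (adjusted p = 0.0576). Class IIa thus held 1 gene that rose with PAM, Hdac9, and 1 that fell, Hdac5.

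Among the class I enzymes, Hdac1 and Hdac2, alternative catalytic subunits of the Sin3, NuRD and CoREST complexes, parted with poly I:C. Hdac2 stood at -0.05 and 0.05 in control, -0.54 and -0.49 with poly I:C and 0.16 and 0.19 with PAM. It fell 1.43-fold with poly I:C (-0.52 ± 0.07; limma adjusted p = 0.000332) and with PAM its difference was 0.17 (adjusted p = 0.104). Its poly I:C arrays were the low ones.

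Hdac1 stood at -0.27 and -0.25 in control, -0.03 and 0.03 with poly I:C and 0.12 and 0.13 with PAM. Here the control arrays were the low ones. Hdac1 rose by 0.39 ± 0.06 with PAM (limma adjusted p = 0.00179) and by 0.26 ± 0.06 with poly I:C (adjusted p = 0.0126), the second call ending without poly I:C 2 (adjusted p = 0.0903). Its 2 probes carry the same transcript annotation, so a near-identical copy of the gene cannot be told apart from it.

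Hdac3, the catalytic subunit of the NCoR and SMRT corepressors, stood at 0.12 and 0.17 in control, -0.21 and -0.22 with poly I:C and -0.02 and 0.02 with PAM. The 3 groups did not overlap, with PAM between the others. Hdac3 fell by 0.36 on the log2 scale with poly I:C (SE 0.06; limma adjusted p = 0.00203), and its PAM difference, -0.15 ± 0.06, did not pass (adjusted p = 0.138). The difference of -0.21 between ligands (adjusted p = 0.0332) ended without any 1 of the 4 treated arrays (adjusted p up to 0.188). Hdac8 passed only between the ligands (-0.35 ± 0.06; adjusted p = 0.0026).

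Hdac6, the cytoplasmic class IIb deacetylase of tubulin, stood at 0.28 and 0.37 in control, -0.43 and -0.57 with poly I:C and -0.04 and 0.04 with PAM. Control was highest and poly I:C lowest, with no overlap. Hdac6 fell 1.77-fold with poly I:C (-0.83 ± 0.08; limma adjusted p = 3.61e-05) and lay 0.50 lower under poly I:C than under PAM on the log2 scale (-0.50 ± 0.08; adjusted p = 0.000871). Its fall with PAM (-0.32 ± 0.08; adjusted p = 0.0124) ended without control 2 or PAM 1 (adjusted p = 0.0521 and 0.101). Hdac10, its class IIb relative, was lower with PAM by 0.23 (-0.23 ± 0.07; adjusted p = 0.0481), a call lost without control 2 and without each treated array. Hdac11 passed nowhere.

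**Figure D2:**
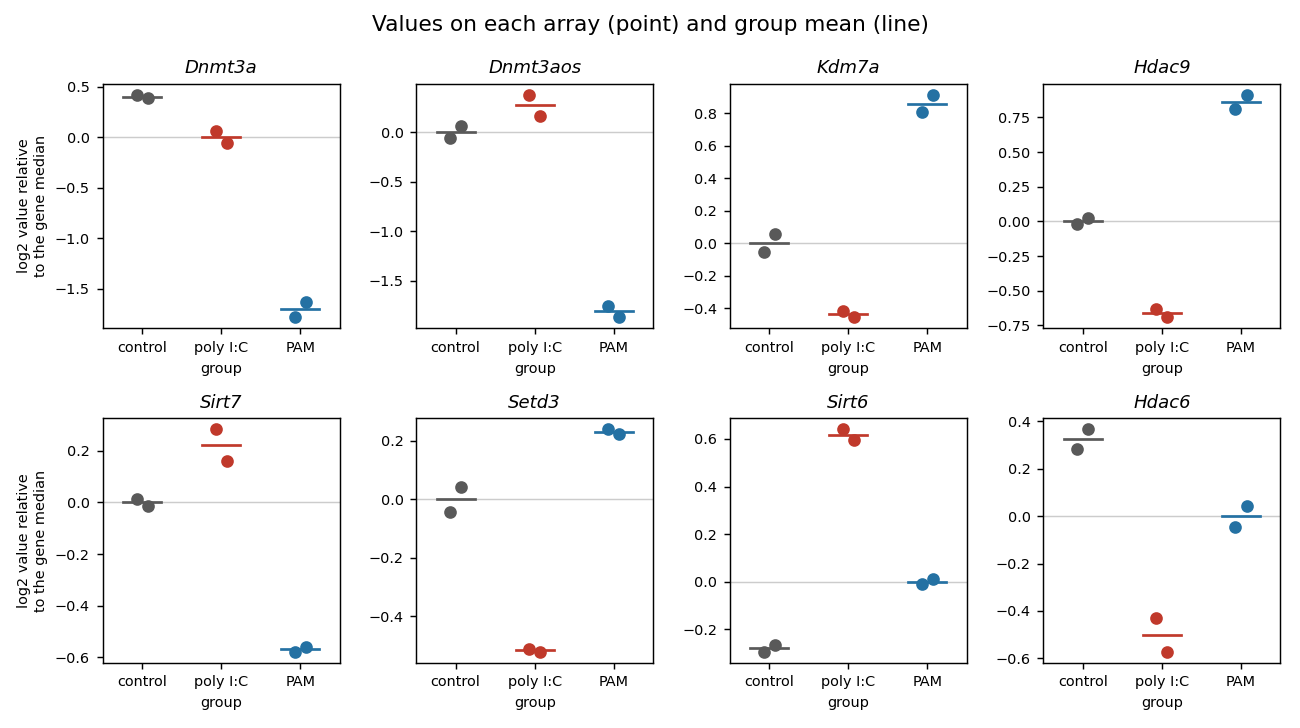
Points are the 2 arrays of each group for 8 genes, on a log2 axis relative to the gene's own median over 6 arrays, lines are group means, and each panel has its own scale. Kdm7a, Hdac9 and Setd3 were lowest with poly I:C and highest with PAM, Dnmt3a and Dnmt3aos were lowest with PAM, and Sirt6 was highest with poly I:C.

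Of the 7 sirtuins 5 (71.4%) were lower and 1 (14.3%) higher with PAM, against 14.0% and 11.0% of all genes and 25.9% and 20.8% of those at 8 or above, where 4 of the 7 lay. The class median was -0.27. With poly I:C 2 were higher and 1 lower (28.6% and 14.3%, against 12.1% and 18.2% of all genes), with a median of 0.10. Directly, 5 (71.4%, against 12.9% of all genes) were higher under poly I:C than under PAM and 0 lower, with a median of 0.29; at an unadjusted p under 0.05 limma also gave 0 lower. These counts rested in part on single arrays and on the number of arrays in the fit. The poly I:C arrays do not enter the PAM difference from control, so leaving 1 out changed only the error estimate and p-values. The 5 lower with PAM became 3 without control 2, poly I:C 1, poly I:C 2 or PAM 1 and 2 without PAM 2, and the 5 between ligands became 2 without poly I:C 1 and 3 without poly I:C 2, PAM 1 or PAM 2.

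Sirt6, a nuclear enzyme that removes acetyl groups from H3K9 and restrains glycolytic genes, gave the largest rise with poly I:C among the 54 genes. It stood at -0.29 and -0.27 in control, 0.64 and 0.59 with poly I:C and -0.01 and 0.01 with PAM. The groups did not overlap, and the poly I:C arrays were the highest. Sirt6 rose 1.86-fold with poly I:C (0.90 ± 0.06; limma adjusted p = 6.41e-06) and was 1.53-fold above PAM (0.62 ± 0.06; adjusted p = 7.06e-05). Its rise with PAM (0.28 ± 0.06; adjusted p = 0.0102) ended without PAM 1 or PAM 2 (adjusted p = 0.0565 and 0.0722). The printed Sirt6 promoter holds its NF-kB match 43 bases before the start, and the other listed Sirt6 promoter holds 0. Any part of the match in the rise was not tested.

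Sirt7, a nucleolar sirtuin, stood at 0.01 and -0.01 in control, 0.28 and 0.16 with poly I:C and -0.58 and -0.56 with PAM. The PAM arrays were the low ones. Sirt7 fell 1.48-fold with PAM (-0.57 ± 0.07; limma adjusted p = 0.000254), and the ligands differed 1.73-fold (0.79 ± 0.07; adjusted p = 2.42e-05). Its rise with poly I:C (0.22 ± 0.07; adjusted p = 0.0375) ended without any 1 array other than poly I:C 2 (adjusted p up to 0.216).

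Sirt1, which deacetylates histones and the NF-kB subunit RelA, stood at 0.11 and 0.28 in control, 0.01 and -0.01 with poly I:C and -0.34 and -0.24 with PAM. The groups were apart, with control highest and PAM lowest. Sirt1 fell by 0.49 on the log2 scale with PAM (SE 0.08; limma adjusted p = 0.00154), and its difference of -0.20 with poly I:C did not pass (adjusted p = 0.0957). The difference of 0.29 between ligands (adjusted p = 0.0214) ended without poly I:C 1, poly I:C 2 or PAM 1 (adjusted p up to 0.153).

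The other sirtuins moved less. Sirt2, the cytoplasmic member, was lower with PAM (-0.27 ± 0.07; limma adjusted p = 0.0171, lost without control 2 or PAM 2). The mitochondrial Sirt3 was lower with PAM (-0.24 ± 0.07; adjusted p = 0.0457), a call that held only without control 2. Sirt5, which removes succinyl groups in mitochondria, was lower with poly I:C (-0.37 ± 0.09; adjusted p = 0.0110, lost without control 2 or poly I:C 2) and with PAM (-0.30 ± 0.09; adjusted p = 0.0393, which held only without control 1). Sirt4, also mitochondrial, passed nowhere.

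The 2 Polycomb methyltransferases write H3K27 methylation. Ezh2, the main one of dividing cells, stood at -0.011 and 0.0021 in control, 0.052 and 0.13 with poly I:C and -0.0021 and -0.072 with PAM. All 6 arrays lay close together, and neither difference from control passed (0.10 ± 0.07, adjusted p = 0.346, and -0.03 ± 0.07, adjusted p = 0.816; limma). Ezh1 was 0.40 ± 0.08 higher under poly I:C than under PAM (adjusted p = 0.00335). Its fall against control with PAM (-0.26 ± 0.08; adjusted p = 0.0319) was kept only without PAM 2.

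Among the 8 Setd genes Setd3, now known as an actin histidine methyltransferase, changed most. It stood at -0.04 and 0.04 in control, -0.51 and -0.52 with poly I:C and 0.24 and 0.22 with PAM. The groups did not overlap. Setd3 fell 1.43-fold with poly I:C (-0.52 ± 0.06; limma adjusted p = 0.00027) and was 1.68-fold lower under poly I:C than under PAM (-0.75 ± 0.06; adjusted p = 2.45e-05). Its rise with PAM (0.23 ± 0.06, adjusted p = 0.0295) was kept only without control 2. For PAM its 2 probes, each fitted on its own, gave 0.26 (limma adjusted p = 0.0201) and 0.21 (adjusted p = 0.112).

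Setd2, which trimethylates H3K36, stood at 0.01 and 0.17 in control, 0.06 and -0.01 with poly I:C and -0.27 and -0.12 with PAM. The PAM arrays were the lowest, and control and poly I:C overlapped. The fall of 0.29 on the log2 scale with PAM (SE 0.08; limma adjusted p = 0.0340) ended without control 2, poly I:C 1, poly I:C 2 or PAM 1 (adjusted p up to 0.234). Setd6, which methylates RelA, fell by 0.31 on the log2 scale with poly I:C (SE 0.07; adjusted p = 0.0055). Setd5 was higher with both ligands (0.24 ± 0.06 and 0.23 ± 0.06; adjusted p = 0.0187 and 0.0272), and the Setd5 calls ended without control 1 or without either array of the ligand compared, the PAM call also without control 2. Setd7 was lower with PAM (-0.31 ± 0.09; adjusted p = 0.0265, lost without control 2, either poly I:C array or PAM 2), and Setd1a, Setd1b and Setd4 passed nowhere.

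**Figure D3:**
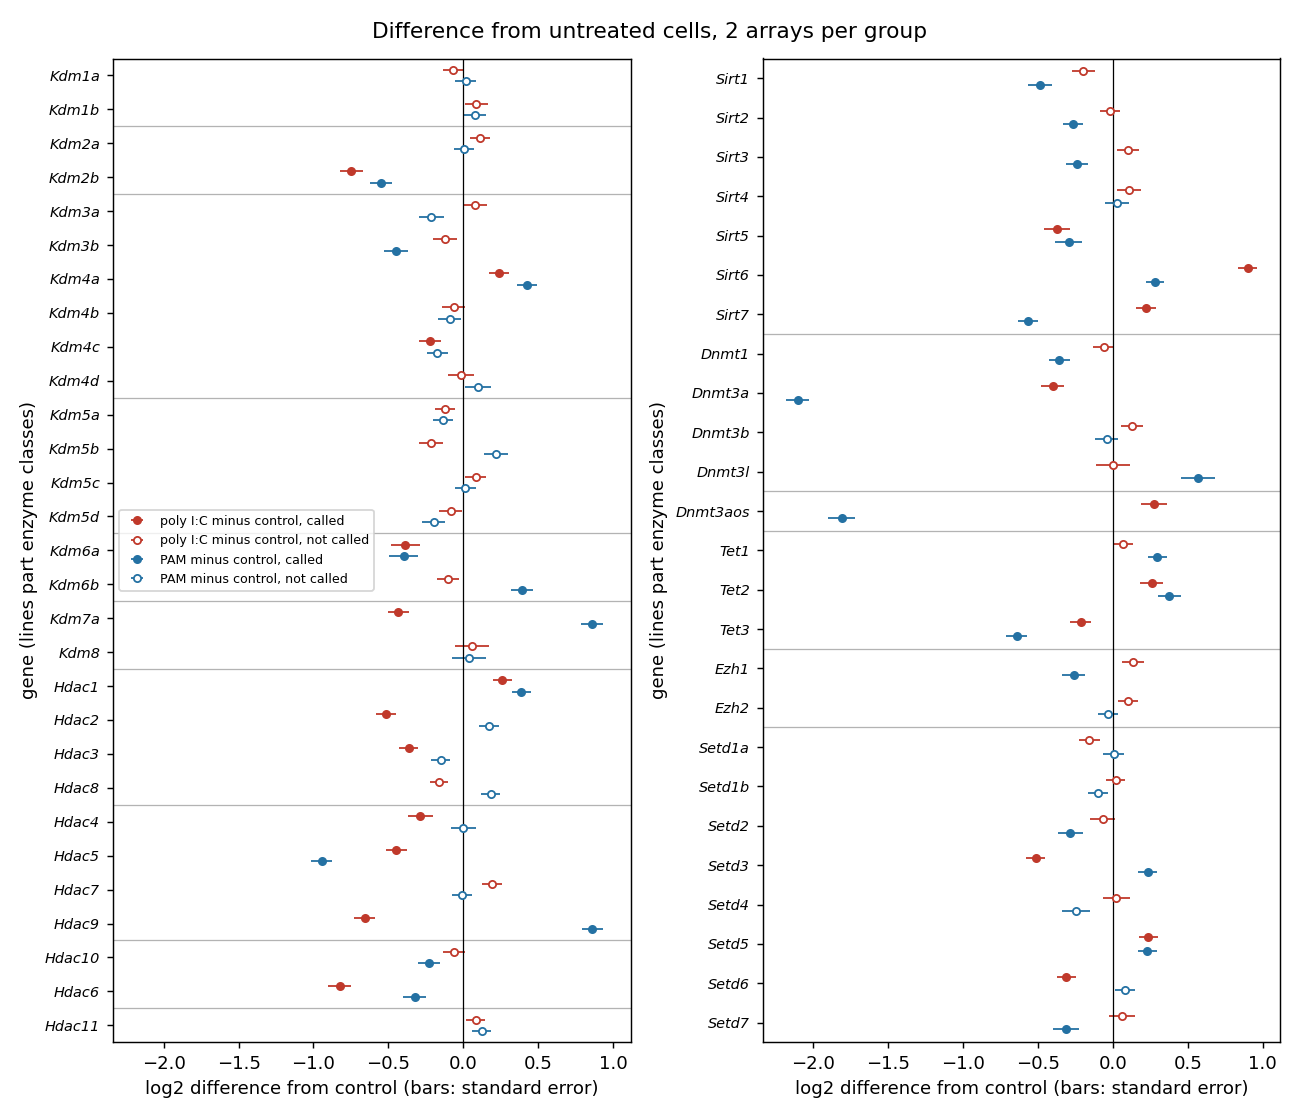
Points give the log2 difference from control for each of the 54 genes with its standard error, red for poly I:C and blue for PAM; filled points passed the adjusted p threshold of 0.05. Dnmt3a and Dnmt3aos lie farthest left with PAM, at -2.11 and -1.81, and the 2 colours fall on opposite sides of 0 for Kdm7a and Hdac9.

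In all, 5 genes were called in opposite directions by the 2 ligands, in comparisons that share the control arrays. The share of all genes called in opposite directions was not counted, so the 5 cannot be set against it. Kdm7a, Hdac9 and Setd3 were lower with poly I:C and higher with PAM, though the Setd3 rise did not pass on each of its 2 probes. Dnmt3aos and Sirt7 were higher with poly I:C and lower with PAM. For Kdm7a and Hdac9 both calls held without any single array, while for Setd3, Dnmt3aos and Sirt7 the smaller of the 2 did not.

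The genes that work with these enzymes gave the following counts, for lists chosen by role. Beside each list stand the shares of all genes called higher and lower. These were 12.1% and 18.2% with poly I:C, 11.0% and 14.0% with PAM, and 12.9% and 15.8% between the ligands. For genes at 8 or above they were larger: 21.8% and 34.0%, 20.8% and 25.9%, and 24.3% and 30.1%. The list of corepressor subunits also holds the transcription factors Mef2a, Mef2c and Mef2d. At 8 or above lay 16 of its 24 genes, 12 of 22 other lysine and 6 of 8 arginine methyltransferases, and 8 of 20 Polycomb partners. So did 5 of 15 DNA methylation partners, 6 of 12 other JmjC proteins, 4 of 11 NAD genes and 14 of 18 alpha-ketoglutarate and methyl donor enzymes. Of the corepressor list 3 were higher and 12 lower under poly I:C and 1 higher and 12 lower with PAM. The genes lower with poly I:C included Mef2a, Mef2c and Mef2d, and those lower with PAM included Mef2c and Mef2d. The medians were -0.21 and -0.23, while all genes had 0.01 and -0.00. Mef2c, the transcription factor that class IIa deacetylases bind, fell with both ligands (-1.51 and -1.21), as did the NuRD helicase Chd3 (-1.0 and -0.61). Sap30 of the Sin3 complex rose with poly I:C (0.77). Between ligands 7 were higher and 8 lower, and these became 3 without poly I:C 1, PAM 1 or PAM 2, and 4 without poly I:C 2 and 3 without PAM 2; the 1 higher with PAM, Sin3b (0.41), became 2 without control 2.

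Of the 13 histone acetyltransferases, which oppose the deacetylases, 10 lay at 8 or above on all arrays. With poly I:C 5 were higher and 1 lower, against 12.1% and 18.2% of all genes. With PAM 0 were higher and 5 lower, against 11.0% and 14.0%. Under poly I:C 8 were higher and 0 lower than under PAM, against 12.9% and 15.8%. At an unadjusted p under 0.05 limma likewise gave 0 higher with PAM and 0 lower between the ligands. Hat1, which acetylates new histones, rose by 1.24 ± 0.07 with poly I:C, and Kat2b rose by 0.93. The coactivators Ncoa3 and Ncoa1 fell by 0.91 and 0.59 on the log2 scale with PAM. None of these counts moved by more than 1.5 times without 1 array.

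Of 22 other lysine methyltransferases 4 were higher and 9 lower under poly I:C, and 1 was higher and 9 lower with PAM. Setdb2, an H3K9 methyltransferase, rose by 2.55 ± 0.11 with poly I:C (limma adjusted p = 1.89e-07) and was 2.51 above its PAM value. Dot1l, which methylates H3K79, fell by 1.06 on the log2 scale with PAM, and Kmt5a, which methylates H4K20, rose by 0.91. Smyd3 fell by 1.24 with poly I:C. The counts for poly I:C became 2 higher without poly I:C 1 and 5 lower without poly I:C 2, and the 9 lower with PAM became 5 without PAM 1. Of 8 arginine methyltransferases 1 was higher and 4 lower with poly I:C (Prmt7 -0.67), 2 higher and 1 lower with PAM (Prmt1 0.35) and 4 lower under poly I:C than under PAM; the 2 became 1 without PAM 2, and the 1 became 0 without control 2, PAM 1 or PAM 2.

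Of 20 Polycomb partners 3 were higher and 4 lower under poly I:C, and 2 were higher and 2 lower with PAM. These counts lay near the shares of all genes, 12.1% and 18.2% with poly I:C and 11.0% and 14.0% with PAM. Pcgf5, a subunit of a variant Polycomb complex, rose by 1.41 ± 0.10 with poly I:C (limma adjusted p = 5.23e-06). Jarid2, which guides the Ezh2 complex, rose by 0.53 with poly I:C and fell by 0.34 on the log2 scale with PAM. Pcgf6 fell by 0.84 with poly I:C. The 2 higher with PAM became 1 without PAM 2, and the 2 lower became 1 without poly I:C 1, poly I:C 2 or PAM 1.

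Of 15 partners and readers of DNA methylation 3 were higher and 3 lower under poly I:C, 1 higher and 4 lower with PAM, and 6 higher and 1 lower under poly I:C than under PAM. Gadd45g, a stress-induced protein linked to demethylation, rose by 0.83 with poly I:C and fell by 1.83 on the log2 scale with PAM, so that the ligands differed by 2.66 ± 0.07 (limma adjusted p = 1.46e-08). Apobec1, a cytidine deaminase, fell by 1.69 on the log2 scale with PAM. The 1 higher with PAM was lost without either control array and without either PAM array. Of 12 other JmjC proteins 1 was higher and 5 lower with poly I:C, and 2 were higher and 2 lower with PAM; the 5 became 3 without control 2 or poly I:C 2, and each 2 became 1 without control 2 or PAM 2, the 2 higher also without PAM 1. Among them Jmjd1c fell by 0.46 and 0.75, and Riox2 rose by 0.67 and 0.49, with poly I:C and PAM.

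Sirtuins need NAD. Of 11 genes of NAD supply and use 5 were higher and 4 lower under poly I:C, and 3 were higher and 2 lower with PAM. Nampt, the rate-limiting enzyme of NAD salvage, rose by 0.98 with poly I:C and 1.14 with PAM, and Bst1, an NAD-consuming surface enzyme, rose by 2.00 with PAM. The 5 became 3 without control 2 or poly I:C 1, the 4 became 2 without control 2 or poly I:C 1 and 1 without poly I:C 2, and the 2 became 0 without PAM 1 and 1 without PAM 2.

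JmjC and Tet enzymes need alpha-ketoglutarate, and methyltransferases a methyl donor. Of 18 enzymes of alpha-ketoglutarate and methyl donor metabolism 2 were higher and 9 lower under poly I:C, and 1 was higher and 5 lower with PAM. Acod1, which makes itaconate, rose by 6.60 with each ligand. Idh1 and Idh2, which make alpha-ketoglutarate, fell by 1.45 and 1.28 on the log2 scale with poly I:C. The 5 lower with PAM became 2 without control 2 or PAM 1 and 3 without PAM 2.

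**Figure D4:**
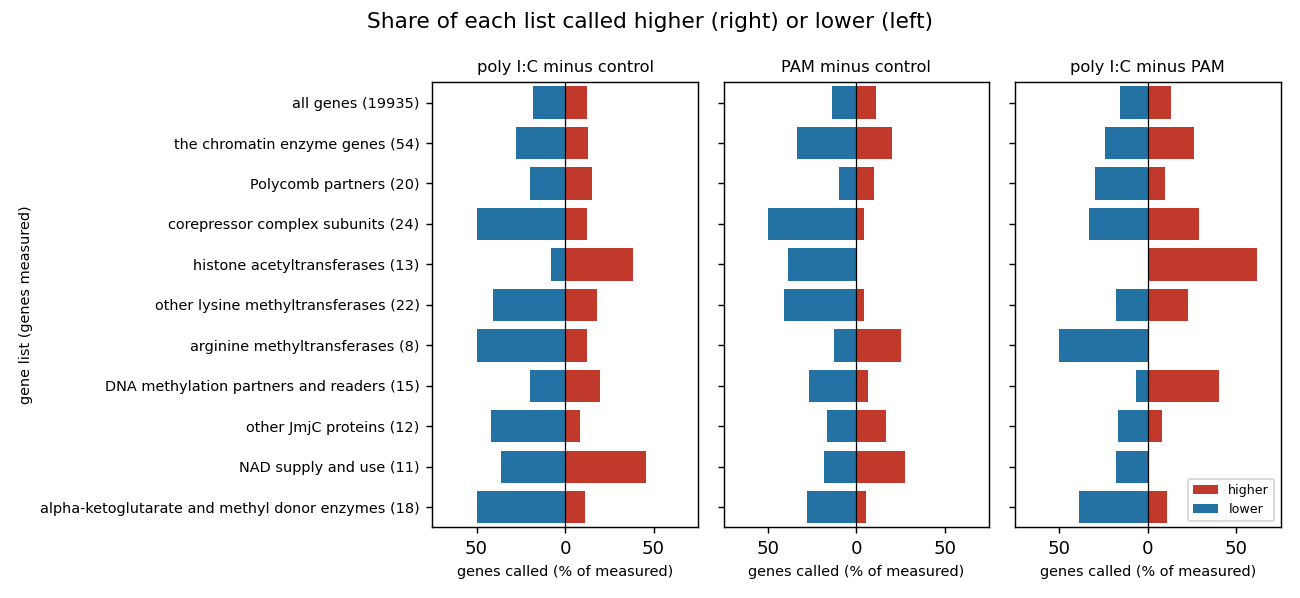
Bars give the percentage of each gene list called higher (right) or lower (left) in each of the 3 comparisons, beside the same for all genes. Histone acetyltransferases were higher in 5 of 13 with poly I:C and in 0 of 13 with PAM. In the list of corepressor complex subunits, which includes Mef2a, Mef2c and Mef2d, 12 of 24 genes were lower with each ligand.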

How the data were processed

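RNA of the 6 samples was hybridised, per the labels' protocols, as biotin-labelled cRNA to Affymetrix arrays. The deposited values are log2 (the base is taken from the range of the values), with each probe's median over 6 arrays subtracted by the authors; array medians ran from -0.0049 to 0.0072. How probes were summarised and normalized is not given in the sources used here. Of 28815 probes, 21780 carry 1 symbol, 1605 several and 5430 none. Probes of a gene were averaged. limma 3.58.1 (R 4.3.3) fitted 1 mean per group over all 6 arrays for 19935 genes (3 residual and 5.681 prior degrees of freedom, median SE 0.0749), with Benjamini-Hochberg adjustment within each comparison. Only 2 arrays per group limit the precision. Values that are whole multiples of the float step of numbers at 8 or above (tolerance 6e-08) marked genes at 8 or above. The members and lists were chosen with earlier results of these data known. Members past 1 log2 unit, called oppositely by the ligands, or chosen for their role have their arrays' values printed. The code was tested on simulated data. Replicate numbers did not pair arrays (correlations of deviations -0.0727, 0.155 and -0.0101). Probes with several symbols were left out.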

Additional observations from a re-analysis of the deposited data

How the results depend on the processing

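Counts of the 54 genes are given as higher and lower. A minimum change of 1.5-fold beside the threshold left 1 and 3 with poly I:C, 2 and 4 with PAM and 4 and 4 between ligands; a minimum of 2-fold left 0 and 0, 0 and 2, and 2 and 2. A separate fit on the 5791 genes at 8 or above, with p-values adjusted over those alone, called 7 of 25 lower under poly I:C than under PAM. Leaving out 1 array gave 2 to 5 and 10 to 16 with poly I:C, 6 to 10 and 11 to 17 with PAM, and 8 to 17 and 10 to 13 between ligands. With the replicate block the counts were 6 and 13, 11 and 17, and 14 and 13; the numbers are only names here, and the block ended 4 calls among the named genes, Dnmt3aos, Kdm4c and Tet3 with poly I:C and Hdac10 with PAM. Of 78 called differences of 38 named genes, 43 held under every alternative run and 35 were lost under at least 1; 0 changed sign. The cause of each loss was not tested. Fits without 1 array also had fewer arrays, and the part of that in the losses was not tested. Centring each array moved the median of all genes by less than 0.01. Signal over background limits the rest, since 25 of the 54 genes were at 8 or above on every array and the others were not.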

Other observations

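The 2 arrays of a group differed, for the 54 genes, by a median of 0.0753 in control, 0.0622 with poly I:C and 0.0708 with PAM on the log2 scale. Over all genes the medians were 0.0910, 0.0724 and 0.0690. The widest pairs were Kdm6a in control (0.293), Dnmt3l with poly I:C (0.376) and Setd7 with PAM (0.233). Next came Sirt5 in control (0.246), Kdm8 with poly I:C (0.342) and Ezh1 with PAM (0.170).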
